A study of Rattus norvegicus with 12 samples.

Results

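Rat heart muscle cells in culture that were already treated with small interfering RNA (siRNA) against Btg1 were compared with and without an added siRNA against Btg2. The comparison was chosen by the treatment labels and uses 6 of the 12 libraries measured: 3 from cultures given both siRNAs and 3 from cultures given the Btg1 siRNA alone. All cultures were cardiomyocyte-enriched ventricular cells of wild-type Sprague-Dawley rats on postnatal day 0, collected 48 h after transfection. Cultures with both siRNAs received 10 nM of Btg1 siRNA and 10 nM of Btg2 siRNA. Cultures with the Btg1 siRNA alone received 10 nM of it and 10 nM of a scrambled siRNA. The remaining libraries, 3 with 10 nM of Btg2 siRNA plus 10 nM of scramble and 3 with 20 nM of scramble, show what the Btg2 siRNA did when Btg1 was not targeted. Every culture therefore held 20 nM of siRNA in all. Whether a group's libraries stem from separate animals or culture dishes is not stated in the labels. P-values therefore reflect the scatter among these libraries alone, which may be technical.

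Btg1 and Btg2 encode small proteins of the BTG/TOB family. These proteins hold back cell division, and they bind the CAF1 subunit of the CCR4-NOT complex, which shortens the poly(A) tails of messenger RNAs. Cardiomyocytes of newborn rodents leave the cell cycle in the first days after birth, and genes of DNA replication and mitosis are shut down as they do so. Most mitotic genes are controlled through a pair of promoter elements, the cell cycle homology region and the CCAAT box. Replication genes are typically controlled through binding sites of the E2F factors.

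The sequences below are promoters of 4 mitotic genes and of 1 replication gene that fell when the Btg2 siRNA was added, with matches to such elements marked. These classes were chosen because they had the largest shares of lower genes among the lists of over 5 genes. Each is the 150 bases before the transcription start, read 5′ to 3′ on the gene's own strand, from RefSeq on the rat build GRCr8. Capitals mark TTTGAA (cell cycle homology region) and CCAAT (or its reverse complement ATTGG) in the mitotic genes, and TTTGGCGC together with the overlapping GCGCGAAA on the other strand (E2F) in Mcm6. Ccnb1 and Plk1 show CCAAT but no TTTGAA in the printed stretch. Each class was marked for its own elements only: Mcm6 also holds ATTGG, and Cdk1 also holds the E2F match TTTCGCGC, both left unmarked. The sequences lie at chr2:33655226-33655375 (minus strand) for Ccnb1, chr5:137255800-137255949 (minus) for Cdc20, chr20:19265143-19265292 (plus) for Cdk1, chr1:186147508-186147657 (plus) for Plk1 and chr13:42404353-42404502 (minus) for Mcm6.
Ccnb1: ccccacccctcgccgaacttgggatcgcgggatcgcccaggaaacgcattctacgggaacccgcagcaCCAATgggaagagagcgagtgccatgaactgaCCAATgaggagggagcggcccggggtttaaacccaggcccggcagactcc
Cdc20: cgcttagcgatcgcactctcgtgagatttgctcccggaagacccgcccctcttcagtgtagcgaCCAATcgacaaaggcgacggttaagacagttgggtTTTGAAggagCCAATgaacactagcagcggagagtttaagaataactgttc
Cdk1: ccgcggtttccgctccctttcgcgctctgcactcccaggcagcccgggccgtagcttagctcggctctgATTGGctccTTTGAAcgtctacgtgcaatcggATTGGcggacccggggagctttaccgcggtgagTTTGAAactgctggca
Plk1: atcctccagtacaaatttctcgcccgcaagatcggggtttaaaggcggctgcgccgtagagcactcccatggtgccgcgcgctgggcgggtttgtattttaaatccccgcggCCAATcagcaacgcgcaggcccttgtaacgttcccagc
Mcm6: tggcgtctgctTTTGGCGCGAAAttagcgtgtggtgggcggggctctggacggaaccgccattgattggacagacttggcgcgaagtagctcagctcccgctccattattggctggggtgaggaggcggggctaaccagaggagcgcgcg

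The RNA was measured as whole-number counts per gene, with total counts of 34823651 to 46206581 in the 6 libraries compared. Levels are given as CPM, a library's counts scaled by TMM to a common total, where 1 count was worth 0.0213 to 0.0290 CPM. They serve to compare libraries for 1 gene and not genes with each other. The first principal component of the 6 libraries held 38.9% of their variance and separated the groups, at -16.6, -16.0 and -11.5 with both siRNAs and at 13.1, 11.5 and 19.5 with the Btg1 siRNA alone.

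The targeted transcript was lower in every library that received the Btg2 siRNA. Btg2 stood at 69.6, 67.6 and 68.8 CPM with both siRNAs, against 170, 179 and 177 CPM with the Btg1 siRNA alone. The groups did not overlap, and the log2 change was -1.35 ± 0.04 (standard error; adjusted p = 4.2e-16 edgeR's quasi-likelihood test, adjusted over all tested genes by Benjamini-Hochberg, as for every adjusted p below). Where Btg1 was not targeted, Btg2 averaged 85.2 ± 2.31 CPM with the Btg2 siRNA and 139 ± 6.41 CPM with scramble (SD, n = 3 each), a log2 change of -0.70 ± 0.04. The change with the Btg1 siRNA present exceeded the change without it by -0.65 ± 0.06 on the log2 scale (adjusted p = 1.4e-07). Its mean with both siRNAs, 68.7 ± 0.983 CPM, was the lowest of the 4 groups.

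Btg1 itself moved in the same comparison, although both groups had received the same dose of its siRNA. Btg1 stood at 50.9, 54.4 and 49.8 CPM with both siRNAs, against 69.9, 61.8 and 66.8 CPM with the Btg1 siRNA alone. The log2 change was -0.36 ± 0.05 (adjusted p = 5.6e-06), so the cultures with both siRNAs held less of both transcripts. With the Btg2 siRNA alone Btg1 averaged 299 ± 4.70 CPM, and with scramble 283 ± 2.19 CPM (adjusted p = 0.16). The other family members tested, Tob1, which also binds CCR4-NOT, among them, were not called. Tob1 averaged 72.1 ± 3.05 CPM with both siRNAs and 76.8 ± 2.50 CPM with the Btg1 siRNA alone. Btg3, a further antiproliferative relative, averaged 49.6 ± 4.02 CPM with both siRNAs and 51.7 ± 2.90 CPM with the Btg1 siRNA alone. Among 13 tested subunits and partners of the CCR4-NOT and PAN deadenylases, edgeR called 0, with 3 at an unadjusted p under 0.05 and a median log2 change of 0.07, and DESeq2 and limma also called 0. Without library 3 of the cultures with both siRNAs, 2 members were called, Cnot4 (adjusted p = 0.017) and the deadenylase subunit Cnot7 (adjusted p = 0.026).

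**Figure D1:**
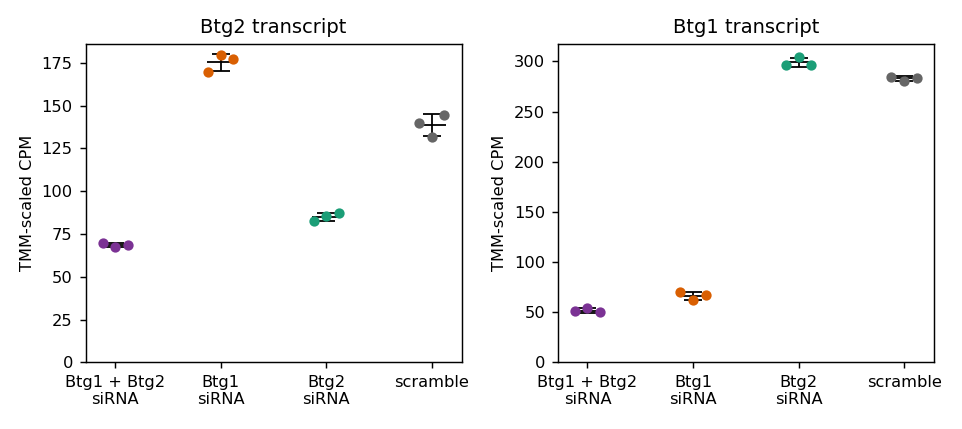
Btg2 (left) and Btg1 (right) transcript levels in TMM-scaled CPM for the 3 libraries of each group; points are libraries, and lines are the mean with 1 SD. Btg2 lies near 68.7 CPM in all 3 libraries with both siRNAs and at 170 CPM or more with the Btg1 siRNA alone, while Btg1 is at 66.2 CPM on average with its siRNA alone and at 51.7 CPM with both.

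Adding the Btg2 siRNA changed many genes by small amounts. Of 12535 genes tested, 2791 (22.3%) passed an adjusted p of 0.05. In the cultures with both siRNAs 1297 genes (10.3%) were higher and 1494 (11.9%) were lower. By limma on TPM slightly more genes were higher than lower, 1200 against 1130 with a pseudocount of 1 and 1213 against 1127 with a pseudocount of 0.1. The median size of a called change was 0.25 on the log2 scale. A change of at least 1.5-fold was reached by 81 of the higher genes and by 284 of the lower ones, and a 2-fold change by 25 higher and 44 lower genes. Thus the large changes were mostly falls. CPM of the 2 groups did not overlap for 4343 genes (34.6%), a share above that of the called genes.

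The 12 largest falls among well-expressed genes held Btg2 itself and genes of several roles. Tcaim, a mitochondrial protein known as an inhibitor of T cell activation, stood at 7.14, 8.70 and 9.33 CPM with both siRNAs, against 20.1, 20.1 and 18.9 CPM with the Btg1 siRNA alone (log2 change -1.23 ± 0.09, adjusted p = 1.4e-09). Leprotl1, an endosomal membrane protein that restrains growth hormone receptor at the cell surface, stood at 19.0, 18.9 and 22.1 CPM with both siRNAs, against 46.0, 47.1 and 42.9 CPM with the Btg1 siRNA alone (-1.18 ± 0.08). Stc1, the secreted hormone stanniocalcin 1, stood at 64.6, 74.2 and 67.7 CPM with both siRNAs, against 144, 154 and 142 CPM with the Btg1 siRNA alone (-1.09 ± 0.07). In these 3 genes every library with both siRNAs lay below every library with the Btg1 siRNA alone, which was required of all 12 falls. They fell just as clearly when Btg1 was not targeted: by 1.15 for Tcaim, by 1.13 for Leprotl1 and by 1.14 for Stc1 on the log2 scale. The difference between the 2 settings was -0.08 ± 0.12 for Tcaim, -0.04 ± 0.11 for Leprotl1 and 0.05 ± 0.10 for Stc1, and none of these passed the test. Slc30a4, a zinc transporter, belonged with them in direction, at 38.0, 38.7 and 34.7 CPM with both siRNAs and 75.2, 74.0 and 74.0 CPM with the Btg1 siRNA alone.

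A second set among the largest falls did the opposite when the Btg2 siRNA was given alone. Creb5, a transcription factor that binds cyclic AMP response elements, stood at 8.76, 9.54 and 8.91 CPM with both siRNAs, against 21.0, 18.4 and 26.1 CPM with the Btg1 siRNA alone (-1.27 ± 0.12, adjusted p = 1.3e-07). It averaged 9.96 ± 1.24 CPM with the Btg2 siRNA alone and 7.41 ± 0.905 CPM with scramble, a log2 change of 0.41 ± 0.13 (adjusted p = 0.018). Xirp2, an actin-binding protein of the intercalated disc, stood at 296, 266 and 245 CPM with both siRNAs, against 556, 451 and 675 CPM with the Btg1 siRNA alone (-1.06 ± 0.15, adjusted p = 0.0012). The libraries with the Btg1 siRNA alone were high and widely spread, and the mean with both siRNAs, 269 ± 25.6 CPM, lay between the 316 ± 37.9 CPM seen with the Btg2 siRNA alone and the 220 ± 9.21 CPM seen with scramble.

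Ankrd23, a titin-associated stretch protein, and Arc, an activity-induced gene best known from neurons, were likewise lower with both siRNAs and higher with the Btg2 siRNA alone. Ankrd23 stood at 5.79, 6.43 and 7.0 CPM with both siRNAs and at 12.6, 11 and 14.8 CPM with the Btg1 siRNA alone (-1.0 ± 0.12). Arc stood at 3.43, 2.93 and 3.77 CPM with both siRNAs and at 7.33, 5.81 and 7.05 CPM with the Btg1 siRNA alone (-1.0 ± 0.14). Without Btg1 siRNA the Btg2 siRNA raised both, Ankrd23 by 0.62 ± 0.13 and Arc by 0.80 ± 0.14. The difference was -1.62 ± 0.18 for Ankrd23 and -1.80 ± 0.20 for Arc (adjusted p = 1.2e-06 for each).

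Of the 12 largest falls, 5 were also called lower with the Btg2 siRNA alone against scramble, 4 were called higher there and 3 were not called. For 9 of the 12 the difference between the 2 settings passed the test, as it did for 15.1% of all tested genes. The 12 were picked by a change that is itself part of this difference, so the count is a description. Those not called with the Btg2 siRNA alone were Iqgap3, a scaffold protein tied to proliferation, F2rl1, the protease-activated receptor PAR2, and Sypl2, a triad junction protein also named mitsugumin 29. Iqgap3 averaged 9.16 ± 0.655 CPM with both siRNAs and 19.0 ± 2.78 CPM with the Btg1 siRNA alone. F2rl1 averaged 8.78 ± 0.776 CPM with both siRNAs and 17.6 ± 4.21 CPM with the Btg1 siRNA alone. Sypl2 averaged 13.2 ± 1.38 CPM with both siRNAs and 26.4 ± 1.60 CPM with the Btg1 siRNA alone.

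The 12 largest rises ran from 0.66 to 1.07 on the log2 scale and were smaller than the largest falls. Plcb2, a phospholipase C that acts downstream of G proteins, stood at 17.7, 16.7 and 16.8 CPM with both siRNAs, against 8.86, 8.95 and 6.44 CPM with the Btg1 siRNA alone (1.07 ± 0.09, adjusted p = 4.4e-08). Prima1, the membrane anchor of acetylcholinesterase, stood at 13.4, 11.9 and 12.2 CPM with both siRNAs, against 7.21, 6.4 and 5.86 CPM with the Btg1 siRNA alone (0.94 ± 0.11). Sytl2, an effector of Rab27 in vesicle release, stood at 54.3, 57.1 and 53.7 CPM with both siRNAs, against 33.7, 33.0 and 32.1 CPM with the Btg1 siRNA alone (0.74 ± 0.05, adjusted p = 1.4e-09). All 12 rises were also called higher with the Btg2 siRNA alone against scramble, by 0.36 to 1.22. The difference between the settings passed the test for 1 of them, Fam181b, with 55.5 ± 3.82 CPM with both siRNAs and 31.5 ± 2.12 CPM with the Btg1 siRNA alone.

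The remaining rises included 2 genes of cardiac electrical and receptor function. Scn4b, an accessory subunit of the cardiac sodium channel, stood at 21.5, 20.3 and 19.8 CPM with both siRNAs, against 13.8, 13.1 and 11.6 CPM with the Btg1 siRNA alone (0.67 ± 0.07). Gpr22, an orphan receptor enriched in heart and brain, stood at 41.3, 41.5 and 39.0 CPM with both siRNAs, against 29.1, 26.4 and 21.1 CPM with the Btg1 siRNA alone (0.66 ± 0.12). Both genes stayed below the levels of the cultures without Btg1 siRNA. Scn4b averaged 42.8 ± 1.47 CPM with the Btg2 siRNA alone and 30.4 ± 1.64 CPM with scramble, and Gpr22 averaged 80.3 ± 5.55 CPM with the Btg2 siRNA alone and 57.3 ± 7.79 CPM with scramble. Others were Ctla2a, a cysteine protease inhibitor known from mouse (0.94), the signalling scaffold Card10 (0.83), the glycosyltransferase B3gnt7 (0.82), the kinase Pak6 (0.74) and the secreted lectin Reg3g (0.67).

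**Figure D2:**
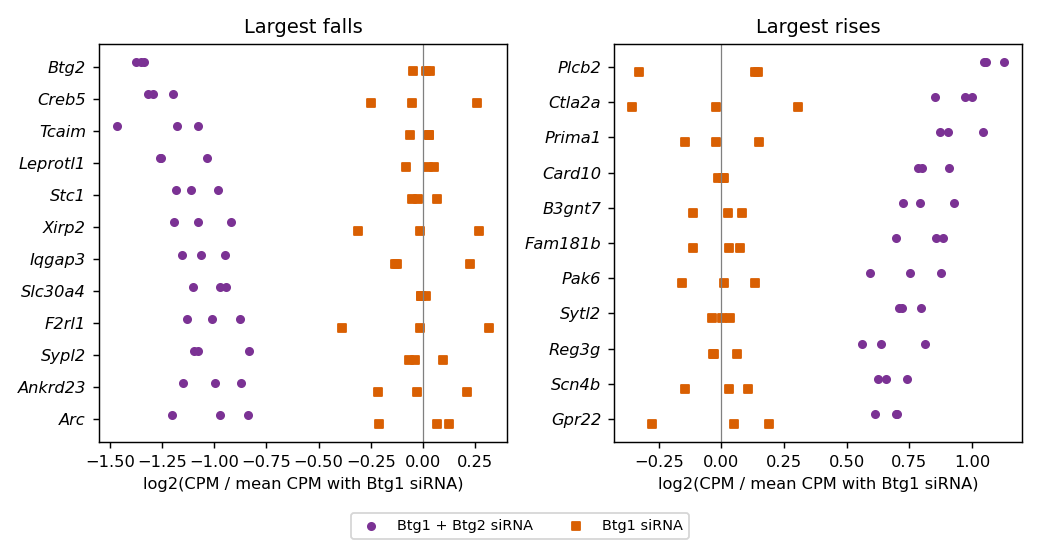
The largest falls (left) and largest rises (right) named in the text, among genes of at least 5 CPM; each point is 1 library, as log2 of its CPM over the mean CPM with the Btg1 siRNA alone. Circles (both siRNAs) and squares (Btg1 siRNA alone) do not overlap for any of these genes, which was required of them.

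The list with the largest share of called genes was that of mitosis. Of 41 tested G2/M and mitosis genes 37 were lower with both siRNAs than with the Btg1 siRNA alone and 0 were higher, with a median log2 change of -0.70, where 11.9% of all tested genes were lower and their median change was -0.00. Plk1, a kinase that drives mitotic entry and exit, stood at 11.7, 12.6 and 12.1 CPM with both siRNAs, against 22.8, 19.9 and 23.4 CPM with the Btg1 siRNA alone (-0.86 ± 0.11, adjusted p = 4.9e-06). Cdk1, the mitotic cyclin-dependent kinase, stood at 16.9, 19.4 and 18.5 CPM with both siRNAs, against 30.5, 26.9 and 34.4 CPM with the Btg1 siRNA alone (-0.74 ± 0.09). Its partner Ccnb1 (cyclin B1) stood at 15.0, 16.3 and 16.9 CPM with both siRNAs, against 26.0, 24.3 and 29.5 CPM with the Btg1 siRNA alone (-0.73 ± 0.08). Cdc20, which activates the anaphase-promoting complex, stood at 18.7, 18.7 and 20.7 CPM with both siRNAs, against 29.4, 28.0 and 33.0 CPM with the Btg1 siRNA alone (-0.63 ± 0.07). None of the 4 genes overlapped between the groups, but they were picked by their small p in this same comparison. Of the whole list 38 of 41 genes were lower without overlap, as were 17.4% of all tested genes.

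Genes of S-phase entry and DNA replication moved the same way by less. Of 45 tested, 30 were lower and 1 was higher, with a median of -0.35, where 11.9% of all tested genes were lower and 10.3% higher. E2f1, the factor that switches on replication genes, stood at 10.4, 12.1 and 11.6 CPM with both siRNAs, against 20.7, 21.2 and 24.3 CPM with the Btg1 siRNA alone (-0.96 ± 0.11, adjusted p = 2.9e-06). Cdt1, which licenses replication origins, stood at 6.84, 7.03 and 7.39 CPM with both siRNAs, against 11.6, 13.2 and 14.4 CPM with the Btg1 siRNA alone (-0.88 ± 0.10). Mcm6, a subunit of the replicative helicase, stood at 28.1, 33.5 and 28.1 CPM with both siRNAs, against 47.6, 47.5 and 51.6 CPM with the Btg1 siRNA alone (-0.71 ± 0.08). In a list of 15 DNA repair genes 7 were lower and 0 were higher. Among them were Fancd2 of the Fanconi anaemia pathway (-0.71 ± 0.10), Bard1, a ubiquitin ligase subunit of recombination repair (-0.77 ± 0.15), and the checkpoint kinase Chek1 (-0.64 ± 0.12).

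The level reached with both siRNAs was close to that with the Btg2 siRNA alone, and the cultures with the Btg1 siRNA alone stood highest. Of the 41 mitotic genes 37 had their highest group mean with the Btg1 siRNA alone, as did 34 of the 45 replication genes and 14 of the 15 repair genes, against 24.8% of all tested genes. The mean over the mitotic list, on a log2 scale relative to the mean with the Btg1 siRNA alone, was -0.72, -0.52 and -0.60 with both siRNAs. It was 0.02, -0.15 and 0.13 with the Btg1 siRNA alone, -0.72, -0.58 and -0.55 with the Btg2 siRNA alone and -0.44, -0.33 and -0.16 with scramble. Plk1 averaged 12.1 ± 0.433 CPM with both siRNAs, 12.3 ± 0.573 CPM with the Btg2 siRNA alone and 16.1 ± 3.21 CPM with scramble.

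Without Btg1 siRNA, the Btg2 siRNA lowered 22 of the 41 mitotic genes and raised 0, with a median of -0.33, where 13.6% of all tested genes were lower. It lowered 21 of the 45 replication genes and raised 2. The 2 settings were compared directly in 1 model over all 12 libraries, in which 1890 genes (15.1%) differed. The effect was more negative with the Btg1 siRNA present for 1264 genes (10.1%) and more positive for 626 (4.99%). For 9 of the mitotic genes the change was more negative with the Btg1 siRNA present, by the test of the difference, and for 0 it was more positive. Scaling by library size alone gave 5 in place of 9. For 6 of the 45 replication genes the change was more negative, a share near that of all tested genes, and scaling by library size alone gave 4.

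**Figure D3:**
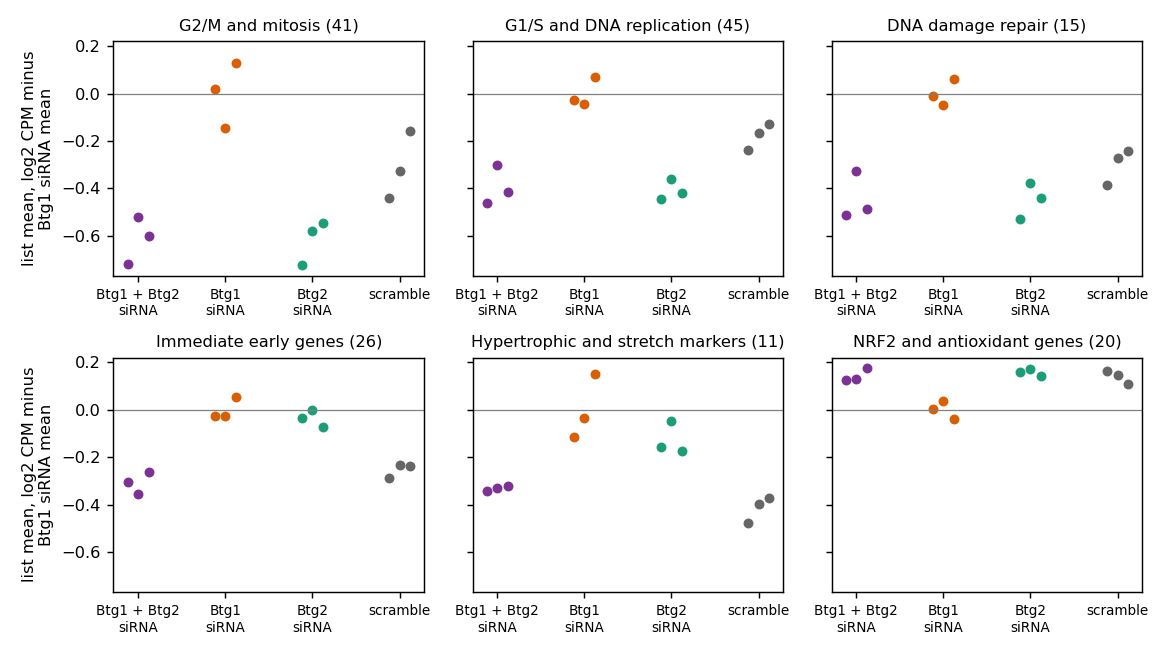
Mean log2 CPM of 6 gene lists in each library, relative to the mean with the Btg1 siRNA alone; each point is 1 library and the numbers in brackets are the genes tested. In the mitotic panel the libraries with both siRNAs (-0.72, -0.52 and -0.60) lie beside those with the Btg2 siRNA alone and below both those with the Btg1 siRNA alone and scramble, while in the immediate early panel the 2 groups with a single targeting siRNA lie together above the other 2.

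In the promoters of these lists the elements shown above were common. TTTGAA was searched on both strands from 250 bases before to 50 bases after the start. It was present in 25 of the 34 mitotic promoters found in the RefSeq table (73.5%), against 11.3% of the 9810 promoters of tested genes and 18.1% of all 27457 promoters. CCAAT was present in 27 of the 34 (79.4%), against 37.3% of promoters of tested genes and 37.7% of all promoters. CCAAT was common in other lists too, in 87.5% of cholesterol, 76.2% of unfolded protein and 64.9% of replication promoters. TTTGAA and CCAAT were both present in 21 of the 34 mitotic promoters (61.8%), against 4.61% and 7.25%. Whether the 2 motifs overlapped within a promoter was not checked. Among the printed promoters Ccnb1 holds 2 CCAAT and no TTTGAA, and the TTTGAA of Plk1 lies 6 bases after its start, beyond the printed stretch. TTTGGCGC or TTTCGCGC was present in 13 of the 37 replication promoters found (35.1%), against 1.45% of promoters of tested genes and 0.841% of all promoters.

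Across all genes, TTTGAA was in 15.2% of the 1164 promoters of genes lower with both siRNAs, in 8.78% of the 1037 promoters of higher genes and in 11.1% of the 7609 promoters of genes not called. Without the mitotic and replication lists the share among lower genes was 13.9%. These matches describe the letters only.

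The D-type cyclins and their kinases, which start the cell cycle, fell in 4 of 5 tested members and rose in 0. Among all tested genes 11.9% were lower. Ccnd2 (cyclin D2) stood at 87.5, 79.0 and 76.4 CPM with both siRNAs, against 119, 118 and 122 CPM with the Btg1 siRNA alone (-0.57 ± 0.05, adjusted p = 1.5e-08). With the Btg2 siRNA alone it averaged 114 ± 3.98 CPM and with scramble 104 ± 2.16 CPM, so that the cultures with both siRNAs held the lowest level of the 4 groups. The difference between the settings was -0.69 ± 0.07 (adjusted p = 1.7e-07). Cdk6, a kinase activated by these cyclins, stood at 8.0, 5.98 and 6.10 CPM with both siRNAs, against 10.9, 10.1 and 9.78 CPM with the Btg1 siRNA alone (-0.62 ± 0.12). The list count was 2 without library 3 of the Btg1 siRNA alone or without library 2 of both siRNAs.

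Inhibitors of the cycle did not move in 1 direction. Of 9 CDK inhibitors and pocket proteins 3 were lower and 2 were higher. Cdkn2c (p18) averaged 5.11 ± 0.531 CPM with both siRNAs and 7.92 ± 1.02 CPM with the Btg1 siRNA alone, and Cdkn2b (p15) averaged 90.8 ± 2.12 CPM with both siRNAs and 107 ± 1.40 CPM with the Btg1 siRNA alone. Of 21 p53 targets 5 were lower and 4 were higher. The share called was 55.6% in the inhibitor list and 42.9% in the p53 list, against 22.3% of all tested genes. Fas, the death receptor, fell by 0.52 ± 0.07 and the kinase Plk2 by 0.30 ± 0.05 on the log2 scale, while Ccng1 (cyclin G1) rose by 0.19 ± 0.04. The fall of Fas was larger without Btg1 siRNA, where the log2 change was -0.94 ± 0.07 (difference 0.42 ± 0.09, adjusted p = 0.0033).

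**Figure D4:**
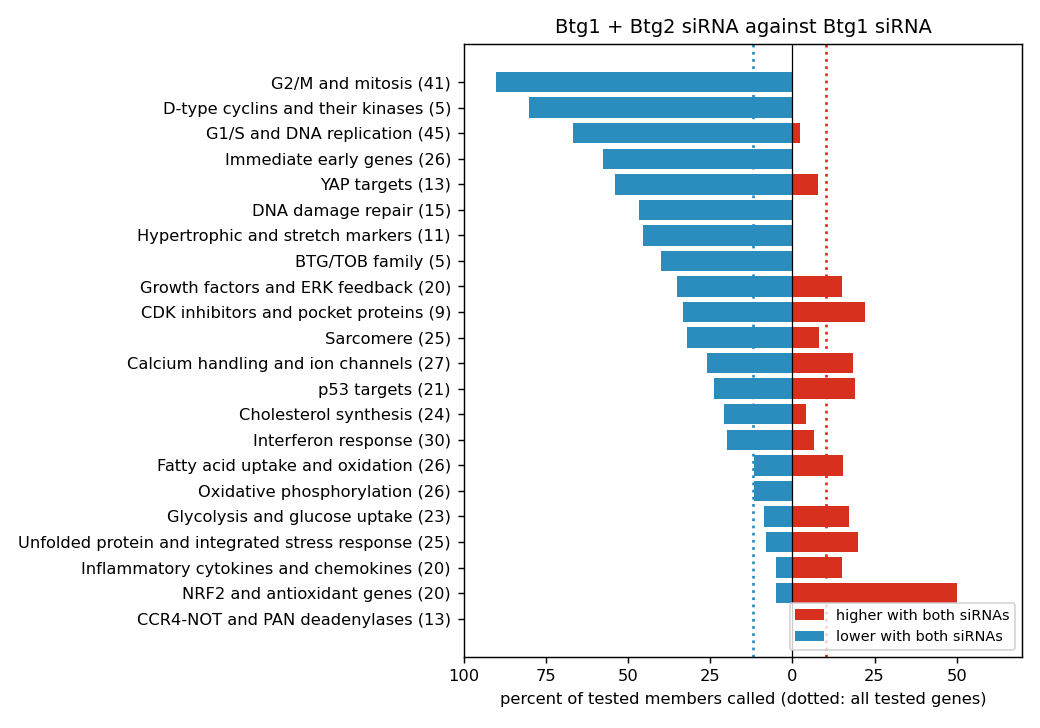
Percent of the tested members of each pathway list that were called lower (left, blue) or higher (right, red) with both siRNAs than with the Btg1 siRNA alone; numbers in brackets are members tested and dotted lines mark all tested genes, 11.9% lower and 10.3% higher. Mitosis (90.2% called, all lower) stands at the top, and the list of NRF2 and antioxidant genes has the longest bar on the higher side.

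Genes induced by mechanical or growth signals formed a further group of falls, and many moved the other way when the Btg2 siRNA was given alone. Of 26 immediate early genes, which respond to stimulation without new protein synthesis, 15 were lower with both siRNAs than with the Btg1 siRNA alone and 0 were higher (median -0.24). The share lower among all tested genes was 11.9%. With the Btg2 siRNA alone against scramble, 14 of these 26 genes were higher and 0 were lower, where 16.4% of all tested genes were higher. The difference between the settings passed the test in 18, all toward a lower value with the Btg1 siRNA present, where 10.1% of all tested genes did so. Scaling by library size alone gave 11 higher genes in place of 14 and 17 differences in place of 18. Egr1, a zinc finger factor, stood at 39.5, 40.2 and 44.6 CPM with both siRNAs, against 60.4, 62.6 and 68.7 CPM with the Btg1 siRNA alone (-0.62 ± 0.06, adjusted p = 8.1e-08). It averaged 54.7 ± 2.56 CPM with the Btg2 siRNA alone and 45.1 ± 1.51 CPM with scramble.

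Nr4a1, an orphan nuclear receptor, followed the order of Egr1. It stood at 26.8, 23.2 and 24.1 CPM with both siRNAs, against 39.8, 33.1 and 34.6 CPM with the Btg1 siRNA alone, and averaged 34.8 ± 2.47 CPM with the Btg2 siRNA alone and 25.6 ± 0.824 CPM with scramble. Its difference between the settings was -0.98 ± 0.10 (adjusted p = 5.8e-07). Dusp1, a phosphatase that switches off MAP kinases, fell by 0.55 ± 0.06 on the log2 scale with the Btg1 siRNA present and averaged 26.6 ± 1.5 CPM with the Btg2 siRNA alone and 26.5 ± 1.00 CPM with scramble. Egr2 averaged 11.6 ± 0.686 CPM with both siRNAs and 18.4 ± 2.25 CPM with the Btg1 siRNA alone (-0.66 ± 0.10).

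Targets of YAP, the effector of the Hippo pathway that controls heart growth, gave a like picture. Of 13 tested 7 were lower and 1 was higher (median -0.26), while with the Btg2 siRNA alone 7 were higher and 1 was lower. Among all tested genes 11.9% were lower with both siRNAs, and 16.4% were higher with the Btg2 siRNA alone. The difference passed the test in 9 of the 13, all lower, as it did in 10.1% of all tested genes. Scaling by library size alone gave 8 lower and 1 higher. Tead1, the DNA-binding partner of YAP, stood at 38.4, 37.9 and 33.5 CPM with both siRNAs, against 54.6, 51.8 and 51.8 CPM with the Btg1 siRNA alone (-0.53 ± 0.06). It averaged 56.2 ± 2.17 CPM with the Btg2 siRNA alone and 40.2 ± 1.24 CPM with scramble (0.48 ± 0.06), so both groups with a single targeted gene lay above the others. The difference was -1.01 ± 0.08 (adjusted p = 1.2e-08). Ccn1, a matrix protein, averaged 198 ± 7.79 CPM with both siRNAs, 260 ± 20.0 CPM with the Btg1 siRNA alone, 193 ± 9.73 CPM with the Btg2 siRNA alone and 151 ± 4.24 CPM with scramble. Crim1, a membrane protein that binds bone morphogenetic proteins, fell by 0.43 ± 0.05 on the log2 scale, and the kinase Nuak2 rose by 0.52 ± 0.05.

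Of 11 hypertrophic and stretch markers 5 were lower and 0 were higher with both siRNAs (median -0.22). With the Btg2 siRNA alone 7 were higher and 1 was lower. Among all tested genes 11.9% were lower with both siRNAs, and 16.4% were higher with the Btg2 siRNA alone. The count of markers called with both siRNAs was 9 without library 1 of the Btg1 siRNA alone. Fhl1, a LIM protein that senses stretch at titin, stood at 583, 651 and 578 CPM with both siRNAs, against 927, 1019 and 1185 CPM with the Btg1 siRNA alone (-0.79 ± 0.10, adjusted p = 3.0e-04). Rcan1, an inhibitor and target of calcineurin, averaged 574 ± 28.9 CPM with both siRNAs, 695 ± 64.8 CPM with the Btg1 siRNA alone, 729 ± 9.74 CPM with the Btg2 siRNA alone and 568 ± 27.8 CPM with scramble. Nrap, a myofibril assembly protein, fell by 0.37 ± 0.05 on the log2 scale.

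The sarcomere list gave 8 lower and 2 higher genes of 25, where 11.9% of all tested genes were lower and 10.3% higher. Given alone, the Btg2 siRNA raised 14 of the 25 and lowered 0, where 16.4% of all tested genes were higher. The difference passed the test in 15 of the 25. Of these, 14 were toward a lower value with the Btg1 siRNA present, where 10.1% of all tested genes did so. Csrp3 (muscle LIM protein) stood at 658, 634 and 656 CPM with both siRNAs, against 805, 804 and 988 CPM with the Btg1 siRNA alone (-0.41 ± 0.06). Pdlim5, a Z-disc adaptor, averaged 407 ± 25.4 CPM with both siRNAs, 509 ± 32.3 CPM with the Btg1 siRNA alone, 510 ± 11.2 CPM with the Btg2 siRNA alone and 404 ± 14.2 CPM with scramble. Myoz2, a calcineurin-binding Z-disc protein, fell by 0.34 ± 0.05. Myl7, the atrial regulatory light chain, went the other way, at 51.2, 58.0 and 67.9 CPM with both siRNAs against 41.7, 42.3 and 43.6 CPM with the Btg1 siRNA alone (0.47 ± 0.08).

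Of 20 genes of growth factors and ERK feedback 7 were lower and 3 were higher. Among all tested genes 11.9% were lower and 10.3% higher. Hbegf, a heparin-binding ligand of the EGF receptor, stood at 48.9, 43.4 and 38.5 CPM with both siRNAs, against 67.0, 71.2 and 84.6 CPM with the Btg1 siRNA alone (-0.77 ± 0.11). It averaged 50.4 ± 6.68 CPM with the Btg2 siRNA alone and 39.4 ± 2.15 CPM with scramble. Inha, the inhibin alpha subunit, was highest with both siRNAs, at 136, 139 and 143 CPM, against 103, 106 and 110 CPM with the Btg1 siRNA alone. It averaged 71.8 ± 1.76 CPM with the Btg2 siRNA alone and 48.9 ± 1.89 CPM with scramble. The Btg2 siRNA raised it by 0.39 ± 0.04 with the Btg1 siRNA present and by 0.55 ± 0.04 without, and the difference of -0.16 ± 0.06 did not pass the test (adjusted p = 0.079).

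Calcium handling and ion channel genes split, with 7 lower and 5 higher of 27. Among all tested genes 11.9% were lower and 10.3% higher. Jph2 (junctophilin 2), which ties the T tubule to the sarcoplasmic reticulum, stood at 169, 165 and 194 CPM with both siRNAs, against 322, 325 and 350 CPM with the Btg1 siRNA alone (-0.92 ± 0.07, adjusted p = 9.6e-07). It was also lower with the Btg2 siRNA alone, at 172 ± 11.2 CPM, than with scramble, at 243 ± 22.4 CPM. Cacna1c, the L-type calcium channel, fell by 0.33 ± 0.04 on the log2 scale. Gja1 (connexin 43), the main ventricular gap junction protein, stood at 1054, 1042 and 999 CPM with both siRNAs, against 833, 886 and 787 CPM with the Btg1 siRNA alone (0.30 ± 0.04).

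Of the 22 pathway lists, the one with the largest share of rises was that of NRF2 targets and antioxidant enzymes, with 10 higher and 1 lower of 20 (median 0.11), where 10.3% of all tested genes were higher. With the Btg2 siRNA alone 4 were higher and 3 lower, against 16.4% and 13.6% of all tested genes. The difference was positive in 7 and negative in 1, against 4.99% and 10.1%. The list mean, on a log2 scale relative to the Btg1 siRNA alone, was 0.12, 0.13 and 0.17 with both siRNAs. With scramble it was 0.16, 0.15 and 0.11. Nqo1, the quinone reductase, stood at 78.1, 79.4 and 77.9 CPM with both siRNAs, against 60.8, 64.9 and 58.0 CPM with the Btg1 siRNA alone (0.36 ± 0.05, adjusted p = 1.3e-05). Gsta4, a glutathione transferase that clears lipid aldehydes, averaged 109 ± 4.71 CPM with both siRNAs and 84.3 ± 0.944 CPM with the Btg1 siRNA alone (0.37 ± 0.05). In both genes the cultures without Btg1 siRNA stood at or above these levels: Nqo1 averaged 95.8 ± 3.20 CPM with the Btg2 siRNA alone and 80.8 ± 4.18 CPM with scramble, and Gsta4 averaged 149 ± 5.67 CPM with the Btg2 siRNA alone and 127 ± 11.3 CPM with scramble. Tkt, the transketolase of the pentose phosphate pathway, was instead lower in both groups without Btg1 siRNA. It averaged 447 ± 11.1 CPM with both siRNAs, 374 ± 8.23 CPM with the Btg1 siRNA alone, 267 ± 6.04 CPM with the Btg2 siRNA alone and 282 ± 8.96 CPM with scramble.

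The share of called genes was 26.9% in the fatty acid list, 26.1% in the glycolysis list and 25% in the cholesterol list, near the 22.3% of all tested genes, and 11.5% in the oxidative phosphorylation list. Of 26 oxidative phosphorylation genes 3 were lower and 0 higher. Ndufa4, a subunit of cytochrome c oxidase, stood at 234, 252 and 267 CPM with both siRNAs, against 366, 389 and 396 CPM with the Btg1 siRNA alone (-0.61 ± 0.05, adjusted p = 8.3e-09), and fell by 0.66 ± 0.05 with the Btg2 siRNA alone. That list's count was 1 without library 3 of the Btg1 siRNA alone or without library 1 or 2 of both siRNAs, and 7 without library 3 of both siRNAs. Of 26 fatty acid genes 4 were higher and 3 lower. Ppargc1a, the coactivator of mitochondrial genes, stood at 17.6, 18.9 and 19.0 CPM with both siRNAs, against 30.3, 27.8 and 29.3 CPM with the Btg1 siRNA alone (-0.65 ± 0.06). The fatty acid transporter Cd36 fell by 0.24 ± 0.04, and Cpt1a, which admits fatty acids to mitochondria, rose by 0.29 ± 0.04. Of 23 glycolysis genes 4 were higher, Aldoc (aldolase C) by 0.34 ± 0.05 among them, and 2 were lower, and the count was 3 without library 2 of the Btg1 siRNA alone or library 1 of both siRNAs. Of 24 cholesterol genes 5 were lower, with the feedback regulator Insig1 down by 0.20 ± 0.04, and 1 was higher, with a count of 3 without library 3 of the Btg1 siRNA alone.

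In the stress and immune lists called genes went in both directions. The share called was 26.7% in the interferon, 20% in the cytokine and 28% in the unfolded protein list. Among all tested genes it was 22.3%. Of 30 interferon genes 6 were lower and 2 higher. Ifit1 stood at 1.30, 1.38 and 1.31 CPM with both siRNAs, against 2.61, 2.18 and 2.09 CPM with the Btg1 siRNA alone. The antiviral gene Oas1a averaged 123 ± 1.47 CPM with both siRNAs and 139 ± 8.67 CPM with the Btg1 siRNA alone. The factor Irf1 averaged 88.7 ± 0.681 CPM with both siRNAs and 77.2 ± 6.03 CPM with the Btg1 siRNA alone. The interferon count was 5 without library 1 or 2 of either group. For 22 of the 30 the highest group mean was with the Btg1 siRNA alone and for the other 8 it was with both siRNAs. Of all tested genes 24.8% had their highest mean with the Btg1 siRNA alone. Of 20 cytokine genes 3 were higher, Csf1 by 0.25 ± 0.05 among them, and 1 was lower, Cxcl12 at -0.22 ± 0.05. Of 25 genes of the unfolded protein and integrated stress responses 5 were higher, with the chaperones Dnajb9 (0.51 ± 0.06) and Hspa5 (0.19 ± 0.04), and 2 were lower. That count was 4 without library 3 of the Btg1 siRNA alone or library 2 of both siRNAs, and 11 without library 3 of both siRNAs.

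Setting the 2 effects of the Btg2 siRNA side by side over all genes, 563 of the 1297 higher genes (43.4%) were also called higher with the Btg2 siRNA alone against scramble, and 36 (2.78%) were called lower there, as were 13.6% of all tested genes. The 563 genes are 27.5% of the 2051 genes higher with the Btg2 siRNA alone. Of the 1494 lower genes, 538 (36%) were also lower with the Btg2 siRNA alone, which is 31.5% of the 1709 genes lower there, and 250 (16.7%) were called higher, near the 16.4% of all tested genes. With scaling by library size alone the opposite calls numbered 56 (4.4%) among the higher genes and 210 (14.4%) among the lower genes. The difference between the settings passed the test for 602 of the 1494 lower genes (40.3%) and for 283 of the 1297 higher genes (21.8%). It did so for 15.1% of all tested genes. The lower and higher genes were picked by a change that is part of the difference, so these shares are descriptions. The comparisons with and without the Btg1 siRNA share no library with each other, but both enter the difference. Over the 12535 genes their log2 changes correlated at 0.213 (Pearson) and 0.242 (Spearman), given as a description since genes are not independent. In the comparison of the Btg2 siRNA alone with scramble 3760 genes (30%) were called, 2051 higher and 1709 lower. With scaling by library size alone the split was 1579 higher and 2248 lower there, and the split of the differences was 1004 higher and 1016 lower in place of 626 and 1264.

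**Figure D5:**
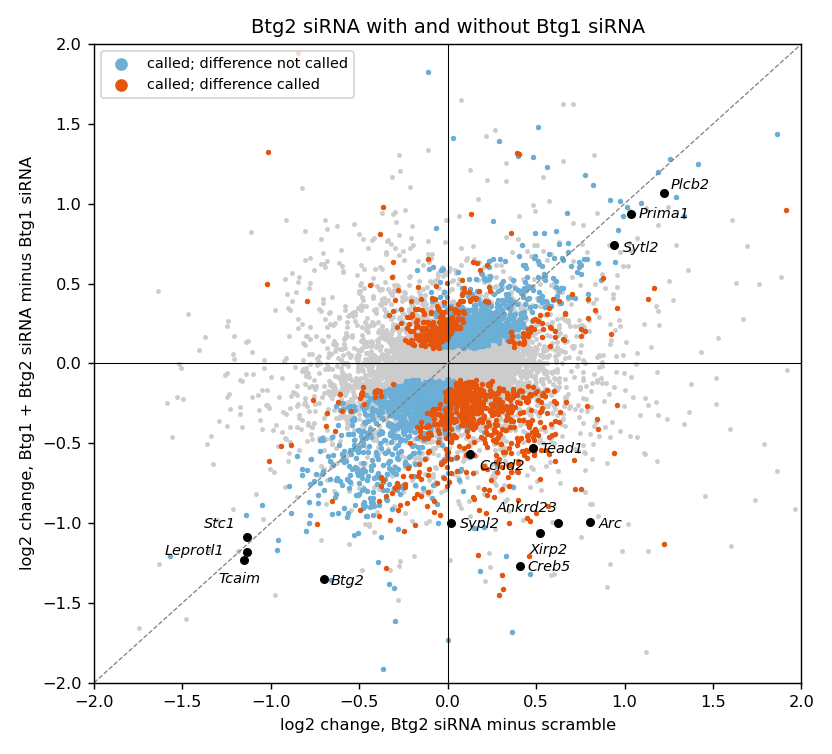
Log2 change with the Btg2 siRNA when Btg1 was also targeted (vertical) against the change when it was not (horizontal), 1 point per tested gene; coloured genes were called in the vertical comparison, orange where the 2 changes also differed by the test, and the dashed line marks equal changes. Tcaim, Leprotl1 and Stc1 lie near the line, while Creb5, Xirp2, Ankrd23 and Arc lie lower right with opposite signs; 14 of 12535 genes fall outside the axes.

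Markers of the cell types that such cultures can hold were measured beside these results. In bulk RNA, fewer cells of a type and less RNA per cell cannot be told apart. Among all tested genes 11.9% were lower and 10.3% higher with both siRNAs, the shares to set beside the marker counts. Cardiomyocyte markers summed to 21181 to 21881 TPM, a unit scaled for gene length, with both siRNAs and 19701 to 21840 TPM with the Btg1 siRNA alone, with 2 of 8 higher and 1 lower, so the labelled cell type carried its defining transcripts. Fibroblast markers summed to 6697 to 7575 TPM with both siRNAs and 6706 to 7632 TPM with the Btg1 siRNA alone, with 1 of 13 lower. That count was 0 or 2 when any 1 of the 6 libraries was left out: 0 without libraries 1 or 3 of the Btg1 siRNA alone or library 2 of both siRNAs, and 2 without the others. Smooth muscle markers summed to 2965 to 3206 TPM with both siRNAs and 3205 to 3937 TPM with the Btg1 siRNA alone, with 2 of 10 lower, Tagln (transgelin) by 0.46 ± 0.05 among them, and 1 higher. Their count was 1 without library 3 of the Btg1 siRNA alone or library 1 of both siRNAs.

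Of the 8 cell type lists, endothelial markers had the largest share of lower genes, with 5 of 12 lower and 0 higher. Their sum was 146.5 to 164.9 TPM with both siRNAs and 172.3 to 187.8 TPM with the Btg1 siRNA alone. Kdr, the main receptor for VEGF, stood at 21.1, 23.6 and 19.0 CPM with both siRNAs, against 32.6, 31.5 and 29.4 CPM with the Btg1 siRNA alone (-0.56 ± 0.07, adjusted p = 6.6e-06). Egfl7, an endothelial secreted protein, fell by 0.45 ± 0.10 on the log2 scale. The count was 2 without library 1 of the Btg1 siRNA alone or library 2 of both siRNAs, and 3 without library 3 of the Btg1 siRNA alone. With the Btg2 siRNA alone, 4 of the 12 were lower than with scramble, as were 8 of 13 fibroblast and 8 of 14 macrophage markers. Among all tested genes 13.6% were lower there. The fibroblast list had 1 higher gene there and the macrophage list 0, and both were measured beside the fall of 22 mitotic genes in the same comparison. By the test of the difference, 3 fibroblast and 3 macrophage markers had a more positive effect of the Btg2 siRNA when Btg1 was also targeted, and 0 had a more negative one. The effect was more positive for 4.99% of all tested genes. The part of these lists in the falls of other genes was not tested.

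Macrophage markers summed to 75.4 to 81.7 TPM with both siRNAs and 70.3 to 83.2 TPM with the Btg1 siRNA alone, with 2 of 14 higher. One was Lyz2 (lysozyme), at 10.9, 11.8 and 11 CPM with both siRNAs and 7.4, 7.38 and 9.31 CPM with the Btg1 siRNA alone. Its adjusted p was 0.0081, and 0.0506 without library 1 of the Btg1 siRNA alone. The macrophage count was 0 without that library and 1 without library 3 of either group. Epicardial markers summed to 286 to 311 TPM with both siRNAs and 217 to 231 TPM with the Btg1 siRNA alone, with 1 of 6 higher. The higher gene was Krt19, a keratin of the mesothelium, at 137, 137 and 157 CPM with both siRNAs and 95, 97.1 and 90.2 CPM with the Btg1 siRNA alone (0.61 ± 0.06), and 2 were called without library 2 of the Btg1 siRNA alone or library 1 of both siRNAs. Schwann and neuronal markers summed to 53.9 to 59.1 TPM with both siRNAs and 49.6 to 55.0 TPM with the Btg1 siRNA alone, with 1 of 4 tested genes higher. Erythroid markers summed to 6.7 to 7.4 TPM with both siRNAs and 6.2 to 8.3 TPM with the Btg1 siRNA alone. edgeR called 0 of 4 of them, with 0 at an unadjusted p under 0.05, and DESeq2 and limma also called 0. The part of these markers in the other results was not tested.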

How the data were processed

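Per the labels' protocols, amplification of total RNA used the Ovation kit, libraries were made with Nextera XT, and read pairs came from an Illumina HiSeq. Tools listed in the submitters' processing notes are STAR, featureCounts, cutadapt, Trim Galore and FastQC, with the rat build rn5. The strand setting is not given in the sources used here, nor is the annotation, so reads of overlapping or near-identical genes may be shared. The authors deposited raw counts per gene, for 17419 symbols and 12 libraries, and the matching TPM values. Low counts of 1 to 10 were more often even (6646) than odd (5200) in the 6 libraries, so counts may exceed fragments. The ribosomal gene Rn45s took 0.775 to 1.49% of counts. Reads carry no molecular identifiers.

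Genes were tested in R 4.3.3 with edgeR 4.0.16 (quasi-likelihood F test) with TMM scaling and robust dispersions, all 12 libraries in 1 fit with 8 residual degrees of freedom. filterByExpr kept 12535 genes and removed 4884. The common biological coefficient of variation was 4.97%. Within each contrast the Benjamini-Hochberg adjustment ran over all tested genes, with calls at 0.05. A standard error is the log2 change divided by the root of F. The contrasts were both siRNAs minus Btg1 siRNA, Btg2 siRNA minus scramble, and the difference of these. No libraries of a group were duplicates: chi-square per degree of freedom between them was 6.76 to 25.7 in the 6 libraries.

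Genes were named by rule: Btg1, Btg2, the 12 largest called rises and 12 largest called falls of at least 5 CPM with no overlap, and up to 4 members with the smallest p from each of 22 pathway and 8 cell type lists. Lists share some members. The comparison, the members and the lists were chosen with earlier results of these data known. Some genes that the rule names are not reported here, several of them because their calls were lost under some alternatives. Promoters came from RefSeq on GRCr8, matched by symbol. That build differs from rn5, and no rn5 coordinates are printed. Symbols matched RefSeq directly for 15460 genes and by synonym for 1614. The steps were tested on simulated data. Alternatives were no filter, 1 CPM in 6 libraries, library size alone, RLE scaling, DESeq2 1.42.0, limma 3.58.1 on TPM with a pseudocount of 1 or 0.1, a replicate block, only the groups compared, and each library left out.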

Additional observations from a re-analysis of the deposited data

Results flagged for a closer look

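The effect of the Btg2 siRNA with the Btg1 siRNA present, minus its effect without, passed edgeR's test of the difference for the following genes named here. Most were named for their change with the Btg1 siRNA present, which is part of the difference. Values are on the log2 scale, negative where the effect was lower with the Btg1 siRNA present.

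Among the largest falls and the targets, the difference was -1.80 for Arc, -1.68 for Creb5, -1.62 for Ankrd23, -1.58 for Xirp2, -1.35 for F2rl1, -1.02 for Sypl2, -0.80 for Iqgap3, -0.65 for Btg2, -0.44 for Btg1 and -0.27 for Slc30a4. Among growth, stretch and muscle genes it was -1.11 for Hbegf, -1.01 for Tead1, -1.0 for Fhl1, -0.98 for Nr4a1, -0.93 for Crim1, -0.90 for Egr1, -0.88 for Egr2, -0.75 for Ccn1, -0.72 for Csrp3, -0.66 for Pdlim5, -0.64 for Rcan1, -0.55 for Dusp1, -0.54 for Nrap, -0.51 for Tagln, -0.42 for Jph2 and -0.35 for Myoz2. Among cell cycle and damage genes it was -0.69 for Ccnd2, -0.59 for Cdk6, -0.57 for E2f1, -0.54 for Plk2, -0.50 for Fancd2, -0.47 for Plk1, -0.36 for Ccnb1, -0.33 for Mcm6 and -0.22 for Cdkn2b. Ifit1 (-1.54), Smad9 (-0.78), Ppargc1a (-0.43) and Smad7 (-0.41) were also lower. The difference was positive for Lyz2 (0.94), Fam181b (0.45), Fas (0.42), Tkt (0.34) and Csf1 (0.26).

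The differences least sure of their call were those of Ccnb1, Plk1 and Mcm6, each lost under 12 of 20 alternatives. Without library 3 of the Btg1 siRNA alone their adjusted p was 0.145 for Ccnb1, 0.0946 for Plk1 and 0.114 for Mcm6. The call for Fancd2 was lost under 6 alternatives and that for Cdk6 under 5. Those for Slc30a4 (4), E2f1 (2) and Jph2 (1) were lost under fewer. The fall of each of these genes with both siRNAs against the Btg1 siRNA alone kept its call under all 15 alternatives run for it.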

How the results depend on the processing

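With both siRNAs against the Btg1 siRNA alone, the 2791 calls numbered 2161 in a fit of only these 2 groups, 2330 and 2340 by limma on log2(TPM + 1) and log2(TPM + 0.1), 2735 to 2876 in the other fits without a block, and 1997 to 3048 when 1 library was left out. Without 1 library the calls with the Btg2 siRNA alone numbered 2836 to 3299 and those of the difference 1325 to 1850. Replicate numbers did not pair the libraries: same-numbered deviations correlated at -0.0271, -0.0269 and 0.0151. The fit with the replicate block gave 2659, 3650 and 1768 calls in the 3 comparisons and called 0 fibroblast markers. The lists of mitotic, replication and immediate early genes had 36 to 37, 26 to 32 and 12 to 14 calls when 1 library was left out.

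Small counts moved most. The fibroblast count was 0 also under library size alone, no filter, both limma fits and the fit of 2 groups. Under both limma fits the D-type cyclin count was 2 and the macrophage count 1. Under both limma fits and the fit of 2 groups the interferon count was 5 and the endothelial count 3. Without the filter 1 CCR4-NOT gene, Cnot4, was called. Leaving out 1 library gave 0 to 2 calls for CCR4-NOT, fibroblast and macrophage lists, 2 to 4 for D-type cyclins, 4 to 9 for hypertrophic markers, 5 to 11 for interferon, 4 to 11 for the unfolded protein list, 3 to 5 for cholesterol, 1 to 7 for oxidative phosphorylation, 3 to 7 for glycolysis, 2 to 7 for endothelial, 1 to 4 for smooth muscle and 1 to 2 for epicardial markers. The cause of these moves was not tested.

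Of all 2791 called genes, 1516 (54.3%) kept their call and direction under all 15 alternatives that gave a value, and of 218 called list members 159 (72.9%) did. Named genes are not a fair sample of these: apart from Nrg1 below, the text names 91 genes, of which 87 were called, and several list members were left unnamed after their calls were seen to be lost under some alternatives. Of the 87, 86 kept their call and Lyz2 lost it under 1. No called gene turned in direction, though Nrg1, at 0.1 TPM in every group, had a change of 0 in both limma fits. Depth limits genes near 1 CPM most, where 1 count was worth 0.0213 to 0.0290 CPM.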

Other observations

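Families outside the lists were counted by gene symbol, and those below were chosen after their values were seen, so their counts are descriptions. Of 39 proteasome subunits, 17 were higher with both siRNAs than with the Btg1 siRNA alone and 0 were lower, with a median log2 change of 0.10, where 10.3% of all tested genes were higher. Given alone, the Btg2 siRNA raised 1 and lowered 7, with a median of -0.01, where 16.4% of all tested genes were higher and 13.6% lower. Psmd12, a subunit of the proteasome lid, stood at 178, 182 and 177 CPM with both siRNAs, against 162, 156 and 154 CPM with the Btg1 siRNA alone (0.18 ± 0.04). The groups did not overlap, though the change was small. Nucleolar proteins named Nop had 5 of 8 members higher and splicing factors named Prpf had 5 of 13 higher, with 0 lower in each. Cytosolic ribosomal proteins had 3 of 77 higher and 2 lower.

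Smad genes, which carry signals of the TGF-beta and bone morphogenetic protein receptors, were lower in 6 of 8 cases and higher in 0. Among all tested genes 11.9% were lower. Some of the Smad calls lay close to the threshold, with an adjusted p of up to 0.0493 by edgeR. Smad9 stood at 4.79, 4.78 and 3.62 CPM with both siRNAs, against 8.06, 7.27 and 8.56 CPM with the Btg1 siRNA alone (-0.86 ± 0.13, adjusted p = 3.4e-05 by edgeR). The inhibitory Smad7 stood at 65.2, 60.6 and 63.2 CPM with both siRNAs, against 68.9, 78.1 and 80.8 CPM with the Btg1 siRNA alone (-0.27 ± 0.06). Without Btg1 siRNA, Smad9 averaged 6.84 ± 0.770 CPM with the Btg2 siRNA and 7.15 ± 0.749 CPM with scramble. Frizzled receptors, which bind Wnt ligands, were lower in 4 of 10 and higher in 0, and calcium channel genes named Cacna were lower in 5 of 10 and higher in 1. Keratins were higher in 4 of 10 in each setting, though the 4 were not all the same genes. Among all tested genes 10.3% were higher with both siRNAs and 16.4% with the Btg2 siRNA alone. Krt15 stood at 4.14, 4.31 and 4.37 CPM with both siRNAs, against 1.70, 2.10 and 1.80 CPM with the Btg1 siRNA alone (1.2 ± 0.16), and Krt8 averaged 8.49 ± 0.734 CPM with both siRNAs and 5.59 ± 0.460 CPM with the Btg1 siRNA alone. Both keratins were also higher with the Btg2 siRNA alone than with scramble, Krt15 by 1.19 and Krt8 by 0.74 on the log2 scale.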
